A study of Mus musculus with 24 samples.

Results

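A set of 10 genes that encode transcription factors of the AP-1 and EGR families were followed across all conditions of the study: the FOS proteins Fos, Fosb, Fosl1 and Fosl2, the JUN proteins Jun, Junb and Jund, Atf3, and the EGR proteins Egr1 and Egr2. They were chosen by gene symbol, with earlier results of these data known, from the 55291 symbols counted in each library. Of these, 10 of 10 were among the 16258 genes that passed the filter on low counts. The study asked how extracellular cold-inducible RNA-binding protein (CIRP), which released from stressed cells acts as an inflammatory signal, changes lung fibroblasts, and whether the receptor TLR4 is needed for it. Pulmonary fibroblasts came from C57BL/6 mice, either WT or TLR4-/-, aged 4 to 8 weeks, with 3 to 4 lungs pooled, and were used at passages 3 to 6. They were cultured for 24 h with PBS, with 1 μg/ml recombinant mouse CIRP (rmCIRP), with 2 ng/ml of rmTGF-β1, the recombinant form of mouse TGF-β1, or with both proteins. Each of these 8 conditions has 3 libraries of total RNA, 24 in all. The labels do not say that libraries of a condition came from separate cultures or animals, so the p-values measure the spread between these libraries, which may be technical, and each genotype is a pool rather than a set of independent mice.

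AP-1 is not a single protein but a set of dimers, in which a FOS protein or ATF3 pairs with a JUN protein through leucine zippers, and the pair then binds short DNA elements in the promoters and enhancers of genes for matrix proteases, cytokines and cell cycle proteins. FOS proteins cannot pair with each other, whereas JUN proteins can, and the makeup of the pair sets how strongly it activates transcription. EGR proteins bind GC-rich elements through zinc fingers and are curbed by the corepressors NAB1 and NAB2, which EGR proteins themselves induce. Many of these genes are immediate early genes: after a stimulus, MAP kinases act on the serum response factor SRF and its partners, the messages of Fos and Egr1 rise within minutes, and they fall again within hours. A sample at 24 h therefore shows what is left or sustained, not the first wave. In lung fibroblasts, EGR1 and several AP-1 proteins are known as mediators of responses to TGF-β1.

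The promoters of 4 members are shown because their messages carry most of what follows: Atf3 and Junb, which were higher with rmCIRP in WT cells, Fos, which was lower, and Egr2, which was higher with rmTGF-β1 in cells labelled TLR4-/-. Each is the 250 bases before a transcription start of the RefSeq annotation of build GRCm38.p6, written 5′ to 3′ along the strand of the gene, and was read from the reference rather than from these libraries. Capitals mark matches to a searched motif.
Atf3, chr1:191183334-191183583, minus strand: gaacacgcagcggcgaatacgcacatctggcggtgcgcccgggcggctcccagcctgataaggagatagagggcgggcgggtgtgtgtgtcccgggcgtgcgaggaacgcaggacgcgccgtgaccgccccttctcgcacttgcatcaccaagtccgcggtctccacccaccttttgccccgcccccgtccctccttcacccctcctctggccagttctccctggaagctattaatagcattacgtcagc
Junb, chr8:84978749-84978998, minus strand: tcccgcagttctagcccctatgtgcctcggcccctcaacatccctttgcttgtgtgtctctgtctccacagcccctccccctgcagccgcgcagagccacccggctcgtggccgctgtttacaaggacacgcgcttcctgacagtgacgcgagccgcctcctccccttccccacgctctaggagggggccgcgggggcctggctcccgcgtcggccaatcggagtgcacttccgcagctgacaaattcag
Fos, chr12:85473640-85473889, plus strand: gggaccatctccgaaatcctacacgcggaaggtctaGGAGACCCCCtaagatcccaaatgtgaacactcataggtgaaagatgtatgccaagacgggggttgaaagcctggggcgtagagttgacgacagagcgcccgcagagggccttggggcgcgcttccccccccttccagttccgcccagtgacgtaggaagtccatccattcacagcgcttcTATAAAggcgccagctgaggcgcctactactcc
Egr2, chr10:67537619-67537868, plus strand: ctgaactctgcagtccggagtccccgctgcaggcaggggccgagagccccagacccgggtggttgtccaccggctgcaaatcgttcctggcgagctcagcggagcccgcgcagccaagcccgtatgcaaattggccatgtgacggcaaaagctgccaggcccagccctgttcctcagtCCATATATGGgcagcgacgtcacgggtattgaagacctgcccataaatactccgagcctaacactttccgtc
In the Fos promoter, the capitals mark a match to the NF-kB site, which starts 214 bases before the start of transcription, and the TATA box TATAAA, which starts 33 bases before it. In the Egr2 promoter shown, that of 1 of its 5 start sites, they mark a CArG box, the core of the serum response element that SRF binds. It starts 72 bases before the start. The Atf3 and Junb promoters held no match to any of the 6 motifs searched. From the same table, 12 promoters of 8 of the members were kept. Among them are 5 start sites of Egr2, 3 of which overlap, so these are not independent sequences. The 3 that overlap hold the same CArG box. The Egr2 window from chr10:67535249 holds no CArG box but has matches to the NF-kB site. Fosl1 and Egr1 have no promoter among the 12. Member promoters on the chromosome of Egr1 were left out of the 12, while that chromosome stayed in the count over all promoters. On both strands, the AP-1 element TGANTCA was matched in 0 of the 12 and in 6.75% of all 32851 promoters of the table, the cyclic AMP response element TGACGTCA in 0 of the 12 and in 1.55%, and the EGR element GCGNGGGCG in 2 of the 12, those of Fosb and Fosl2, and in 4.7%. TATAAA was matched in 1 of the 12 and in 12.4% of all, the CArG box in 4 of the 12, all at Egr2, and in 1.47%, and the NF-kB site in 4 of the 12 and in 7.25%. A promoter was counted once per motif, also where matches overlapped. A match describes letters in this window only.

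Libraries held 29853346 to 39664606 reads assigned to genes. Tlr4, the gene targeted in the TLR4-/- mice, did not have fewer reads in the libraries of that label: its size-normalised read count (reads divided by the library's DESeq2 size factor) lay between 630 and 802 in the 12 WT libraries and between 702 and 941 in the other 12. Gene totals cannot tell which exons the reads came from, so those libraries are called labelled TLR4-/- here. The pools also differed in the sex of the mice: Xist was counted 0 to 3 times in WT libraries and 4403 to 6201 times in libraries labelled TLR4-/-, and Ddx3y, a gene of the Y chromosome, 3476 to 5044 and 1738 to 2716 times. All 9 fibroblast markers were expressed in every condition, and 13 of 13 macrophage markers were too, at a summed size-normalised count of 88815 to 96860 in WT and 332854 to 380413 in labelled TLR4-/- libraries with PBS. Replicate 3 labelled TLR4-/- with both proteins stood apart from its 2 replicates, with a root mean square log2 difference of 0.309 over genes where the next highest of the 24 libraries had 0.23, and results that rest on it are given with and without it.

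**Figure D1:**
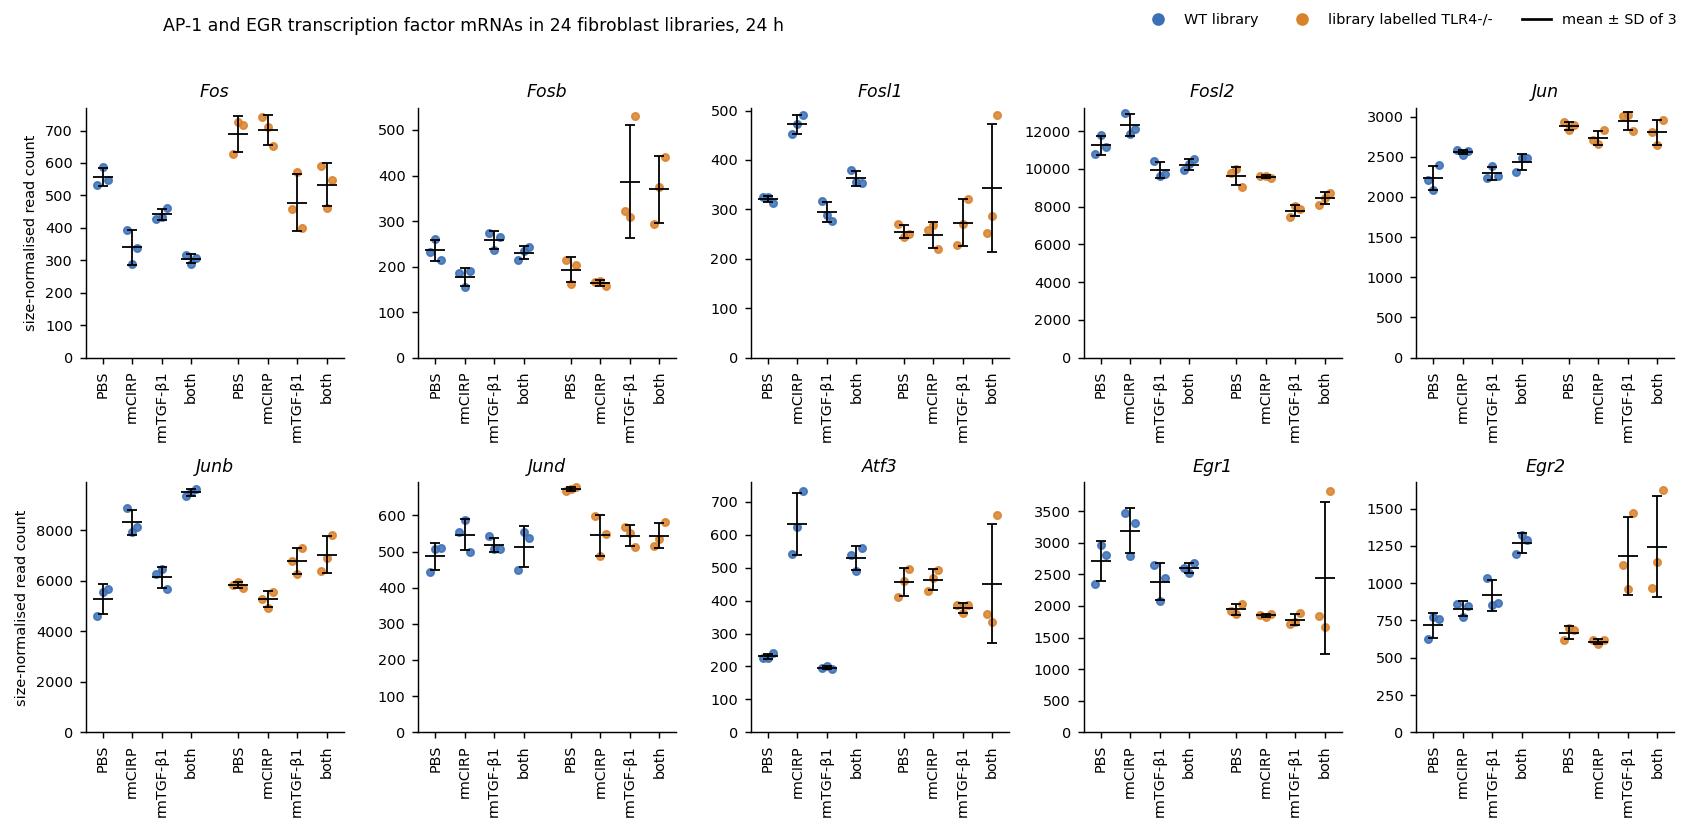
Size-normalised read counts of the 10 genes in each of the 24 libraries (points, blue for WT and orange for labelled TLR4-/-), with the mean and SD of the 3 libraries of each condition in black, each panel with its own linear axis from 0. Atf3 and Junb rise and Fos falls where rmCIRP was given to WT cells, and the high point of Egr1 at 3827 in labelled TLR4-/- cells with both proteins is replicate 3.

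At rest, the messages differed widely in abundance. Per kilobase of exon, the scale on which genes can be compared, Junb led in WT cells with PBS at 2291 size-normalised reads per kilobase, followed by Fosl2 at 1162, Jun at 701 and Egr1 at 604. Jund (292), Fos (237), Egr2 (212), Fosl1 (158) and Atf3 (107) were lower, and Fosb was lowest at 37.7. The lengths are the union of exons in GENCODE M21, which may not be the annotation the reads were counted on. For 2 of these genes the level is less certain, because 57.2% of the exon bases of Fosl1 and 52.6% of those of Jund overlap a gene on the opposite strand (Ccdc85b and Gm11175) and the strand option of the counting is not given. Overlaps of Junb with Prdx2 (7.52%) and of Jun with Junos (7.28%) are smaller.

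Over the 8 conditions, Atf3 varied most, with a highest mean 3.22 times its lowest, and Jun varied least, at 1.32 times. The ratio was 2.36 for Fosb, 2.31 for Fos, 2.08 for Egr2, 1.9 for Fosl1, 1.8 for Junb, 1.79 for Egr1, 1.58 for Fosl2 and 1.38 for Jund. The conditions at the ends of the order differed from gene to gene. WT cells with rmCIRP had the highest mean of Atf3, Fosl1, Fosl2 and Egr1, and the next to lowest of Fos and Fosb. WT cells with both proteins had the highest mean of Junb and Egr2 and the lowest of Fos. Neighbours in the order often overlapped: for Jund, only labelled TLR4-/- cells with PBS (673 ± 6.08, SD, n = 3) lay clear of the rest, and the other 7 conditions, between 487 and 547, each overlapped the next. For Jun the 4 conditions labelled TLR4-/- (2732 to 2948) all lay above the 4 WT conditions (2235 to 2560).

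With rmCIRP, WT cultures carried more Atf3 and Junb message and less Fos message than with PBS, and smaller differences put Fosl1, Jun and Fosl2 higher and Fosb lower. In all, 7 of the 10 genes passed an adjusted p of 0.1 (edgeR's quasi-likelihood test, Benjamini-Hochberg adjustment over the 16258 genes tested), against 43.9% of all genes tested. Of these, 5 were higher, against 19.8% of all genes, and 2 were lower, against 24.1%. The median log2 fold change was 0.195 over the 10 genes and -0.0215 over all genes. The share lower was near that of all genes, and neither EGR gene was called.

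Atf3, which pairs with JUN proteins and is known as a stress-induced brake on inflammatory genes in macrophages, showed the largest difference of the 10. Its size-normalised read counts were 227, 227 and 240 in the WT libraries with PBS and 542, 625 and 732 in those with rmCIRP. Every treated library lay above every control library, and the lowest treated value was more than any WT value without rmCIRP. The change on the log2 scale was 1.45 (SE 0.17, adjusted p = 5.36e-07), a 2.73-fold higher level. Without any single library, it stayed between 1.34 and 1.54 on the log2 scale.

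Among the JUN genes, Junb, a JUN protein that activates more weakly than Jun on many elements, rose most. Its counts were 4601, 5550.0 and 5660.0 with PBS and 8877, 7919 and 8122 with rmCIRP in WT cells, with no overlap. The change on the log2 scale was 0.65 (SE 0.08, adjusted p = 4.88e-07), or 1.57-fold. Jun, the founding member of the family, was 2216, 2091 and 2398 with PBS and 2584, 2527 and 2569 with rmCIRP. The treated libraries again lay above all controls, but the change was small, at 0.19 (SE 0.05, adjusted p = 0.0028). Jund, which is expressed steadily in many resting cells, was 444, 506 and 510.0 with PBS and 555, 586 and 499.9 with rmCIRP. These ranges overlapped, and the log2 fold change of 0.16 (95% interval -0.01 to 0.34, adjusted p = 0.132) was not called, although without WT rmCIRP replicate 3 it was 0.24 with an adjusted p of 0.0456.

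The FOS genes moved in both directions. Fos, the prototype immediate early gene, was at 533, 588 and 547 in WT libraries with PBS and at 394, 287 and 339 with rmCIRP. All 3 treated libraries were below all controls, and the level fell by 0.72 on the log2 scale (SE 0.12, adjusted p = 3.92e-05), to 0.608 of the control. Fosl1 (also called FRA-1), which lacks the strong activation domain of Fos and is a common partner of JUN proteins in migrating cells, was 324, 325 and 313 with PBS and 452, 473 and 491 with rmCIRP, a log2 fold change of 0.55 (with SE 0.16 and adjusted p = 0.0076). Fosl2 (FRA-2), by far the most abundant FOS message here, was 10796, 11803 and 11154 with PBS and 12954, 11834 and 12131 with rmCIRP. Its treated libraries all exceeded the controls, the nearest pair by little, and the change on the log2 scale was 0.12 (SE 0.05, adjusted p = 0.0375). Fosb was 232, 261 and 214 with PBS and 186, 154 and 191 with rmCIRP, a log2 fold change of -0.42 (with SE 0.18 and adjusted p = 0.0752).

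The calls of Fosb and Fosl2 depended on single libraries. Fosb was not called in 4 of the 6 fits that left out a library, those without WT PBS replicate 1 or 2 or WT rmCIRP replicate 2 or 3, with log2 fold changes between -0.46 and -0.32 and adjusted p up to 0.246. Fosl2 was not called without WT PBS replicate 1 (0.11, adjusted p = 0.101), WT PBS replicate 3 (0.12, adjusted p = 0.103) or WT rmCIRP replicate 1 (0.08, adjusted p = 0.218). The calls of Atf3, Junb, Fos, Fosl1 and Jun held in 6 of 6 such fits.

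The EGR genes did not pass the test with rmCIRP alone. Egr1 was 2350.2, 2959 and 2813 with PBS and 3466, 2792 and 3318 with rmCIRP in WT cells, with overlapping ranges and a log2 fold change of 0.23 (95% interval -0.15 to 0.62, adjusted p = 0.349). Egr2 was 623, 777 and 759 with PBS and 864, 771 and 851 with rmCIRP, a log2 fold change of 0.2 (95% interval -0.12 to 0.51, adjusted p = 0.329). The intervals leave room for a rise of up to 0.62 and 0.51 on the log2 scale.

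Markers of other cells moved with rmCIRP in WT cells as well. The summed macrophage list was 78232 to 83397 with rmCIRP against 88815 to 96860 with PBS, with 4 of its 13 genes higher and 8 lower, and the fibroblast list was 463380 to 500680 against 580490 to 618384, with 2 of 9 higher and 6 lower. The epithelial list, which is low in these cells, was 32.9 to 41.5 against 70.8 to 115, with 3 of its 3 tested genes lower, Cdh1 at -2.65 and Krt18 at -1.24 among them. The endothelial list was 619 to 766 against 576 to 849.6, with 1 of 4 higher and 1 lower. Of all genes tested, 19.8% were higher and 24.1% lower in this comparison. No gene of these lists was at 0 in all libraries of a condition. Within the macrophage list the largest rises were Fcgr1 at 2.26 and Cd14 at 1.7, and the largest falls Mrc1 at -0.71 and Mertk at -0.66. In RNA from a whole culture, a change in the number of cells of a type and a change in RNA per cell cannot be told apart. The part of cell makeup in the values of the 10 genes was not tested.

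**Figure D2:**
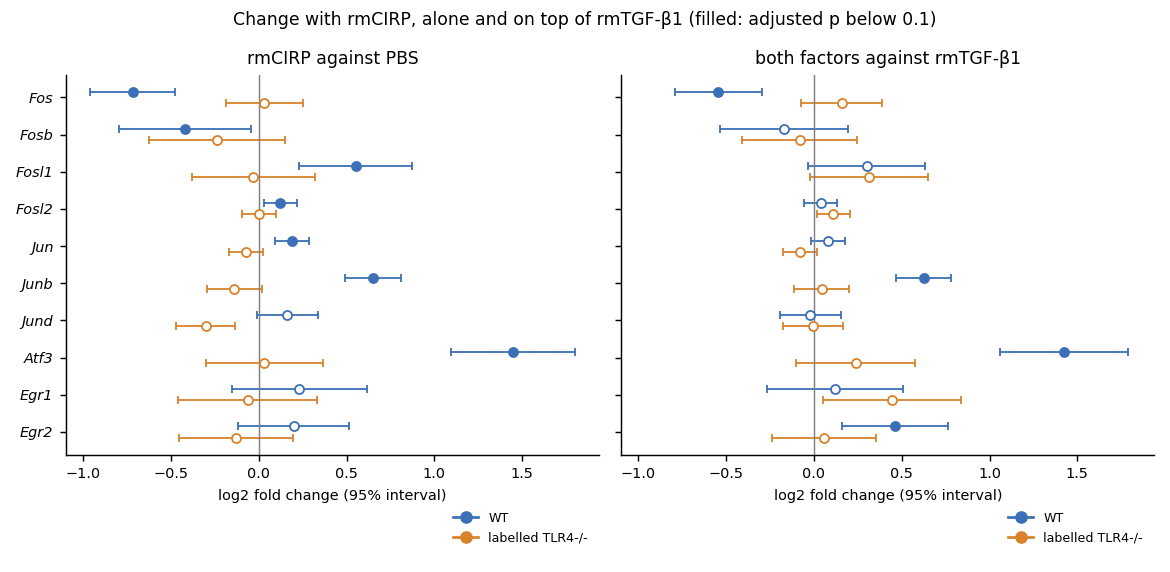
Log2 fold changes of the 10 genes (points) with 95% intervals (bars) for rmCIRP against PBS and for both proteins against rmTGF-β1, in WT (blue) and labelled TLR4-/- cells (orange), filled where the adjusted p was below 0.1. In WT cells Atf3 lies near 1.4 and Junb near 0.6 in both panels with Fos below 0, whereas no orange point is filled.

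In cells labelled TLR4-/-, none of the 10 genes was called with rmCIRP, and neither was any other gene (0% of all genes tested, with the lowest adjusted p at 0.104). At an unadjusted p under 0.05 there was 1 of the 10, Jund, and 1136 of all genes, or 6.99%. DESeq2 called 33 genes in all and none of the 10. Without the filter on low counts, edgeR did call 1 of the 10, and the counts over all genes are given with the other alternatives below. Atf3 was 410.0, 461 and 495 with PBS and 430, 468 and 493 with rmCIRP, so the ranges overlapped, with a log2 fold change of 0.03 (95% interval -0.3 to 0.36). Junb was 5813, 5931 and 5699 with PBS and 5284, 4932 and 5561 with rmCIRP, a difference of -0.14 (95% interval -0.3 to 0.02). Fos was 626, 726 and 717 with PBS and 741, 712 and 653 with rmCIRP, a difference of 0.03 (95% interval -0.19 to 0.25). Jund was 667, 674 and 679 with PBS and 600, 487 and 548 with rmCIRP, and its difference of -0.3 (SE 0.08) had an adjusted p of 0.339.

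A test of whether rmCIRP acted differently in the 2 genotypes called 6 of the 10 genes, against 31.4% of all genes tested, 1 of them above 0 against 17.1% and 5 below 0 against 14.3%. With the WT response subtracted from that of labelled TLR4-/- cells, the difference was -1.42 on the log2 scale for Atf3 (SE 0.23, adjusted p = 0.000105), -0.79 for Junb (SE 0.11, adjusted p = 9.3e-06) and 0.75 for Fos (SE 0.16, adjusted p = 0.00122). It was -0.26 for Jun (SE 0.07, adjusted p = 0.00529), -0.46 for Jund (SE 0.12, adjusted p = 0.00519) and -0.58 for Fosl1 (SE 0.23, adjusted p = 0.0699). The difference of Jund came with a small rise in WT and a small fall in labelled TLR4-/- cells, neither of which was called by itself. Its labelled TLR4-/- libraries with PBS (673 ± 6.08, SD, n = 3) lay above those of every other condition. They are also the controls for rmTGF-β1 in these cells and enter the comparison of genotypes with PBS, so the Jund values of these comparisons are not independent. Beside rmTGF-β1, where these libraries are not used, the genotype difference of Jund was 0.015 (SE 0.12, adjusted p = 0.958). The call of Fosl1 was lost without WT PBS replicate 3, WT rmCIRP replicate 3, labelled TLR4-/- PBS replicate 1 or labelled TLR4-/- rmCIRP replicate 3, where the difference lay between -0.57 and -0.49 with adjusted p of 0.115 to 0.158. Fosb (0.18, 95% interval -0.36 to 0.72), Fosl2, Egr1 and Egr2 were not called. Fosl2, at -0.12 (adjusted p = 0.182), was called at -0.17 without WT PBS replicate 2 and without WT rmCIRP replicate 2 and at -0.18 without labelled TLR4-/- PBS replicate 3. The genotype is confounded with the pool, the sex of the mice and the level of macrophage markers, and these cannot be told apart.

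When rmCIRP was added to rmTGF-β1 in WT cells, Atf3, Junb and Fos again differed from rmTGF-β1 alone, and Egr2 joined them. In all 4 of the 10 genes were called, against 42.2% of all genes, 3 of them higher against 20.5%, and 1 lower against 21.7%. Atf3 was 196, 201 and 194 under rmTGF-β1 and 537, 489.8 and 559.6 under both, a log2 fold change of 1.42 (with SE 0.18 and adjusted p = 1.25e-06). Junb was 6265, 6445 and 5679 under rmTGF-β1 and 9339, 9521 and 9619 under both, the highest values of any WT library, at 0.63 (SE 0.08, adjusted p = 9.07e-07). Fos was 429, 435 and 461 under rmTGF-β1 and 317, 289 and 307 under both, at -0.54 (SE 0.12, adjusted p = 0.00115). In none of these 3 genes did the ranges overlap.

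Egr2, a zinc finger factor known for its part in myelination, was 1035, 852 and 867 under rmTGF-β1 and 1196, 1324 and 1288 under both in WT cells. The change on the log2 scale was 0.46 (SE 0.15, adjusted p = 0.0159), and every library with both lay above every one with rmTGF-β1 alone. Jun, at 0.08 (SE 0.05, adjusted p = 0.203), was called only without WT both replicate 1, at 0.12 with an adjusted p of 0.0983. Fosl1, at 0.3 (95% interval -0.03 to 0.64, adjusted p = 0.156), was not called here. These 2 comparisons share no library, but whether rmCIRP acted differently with and without rmTGF-β1 was tested by the interaction, which called none of the 10 genes, with 0 of the 10 at an unadjusted p under 0.05, against 0.0492% of all genes called and 5.64% under that unadjusted p. DESeq2 called none of the 10 either, and 37 of all genes. The interaction was -0.03 for Atf3 (95% interval -0.54 to 0.49), -0.02 for Junb (95% interval -0.25 to 0.2) and 0.17 for Fos (95% interval -0.17 to 0.52), so differences of that size remain possible.

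In cells labelled TLR4-/-, both proteins against rmTGF-β1 alone called none of the 10 genes, against 2.69% of all genes, with 2 of the 10, Egr1 and Fosl2, at an unadjusted p under 0.05. DESeq2 likewise called none of the 10, and 902 of all genes. Without the filter on low counts, however, edgeR called 3 of the 10. Egr1 showed how much rested on 1 library: it was 1716, 1743 and 1884 under rmTGF-β1 and 1834, 1669 and 3827 under both. The high value is replicate 3, and without it the log2 fold change went from 0.45 (SE 0.19) to -0.03 (SE 0.09). Atf3 was 359, 336 and 659 with both, and its log2 fold change went from 0.24 to -0.13 without replicate 3. Fosl1 was 252, 286 and 491, and its value went from 0.31 to -0.03. Without replicate 3 there were 0 of the 10 genes called and 1 of all genes, against 437 with it. Leaving out replicate 1 with both instead put 3 of the 10 past the threshold, namely Egr1 at 0.61, Fosl1 at 0.49 and Fosl2 at 0.14, where 2674 of all genes were called, and leaving out replicate 2 put Egr1 past it at 0.66, where 738 were.

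The difference between genotypes in this response called 3 of the 10 genes, against 20.9% of all genes: Atf3 at -1.18 (SE 0.24, adjusted p = 0.00124), Junb at -0.58 (SE 0.11, adjusted p = 0.000431) and Fos at 0.7 (SE 0.16, adjusted p = 0.0044). Without labelled TLR4-/- both replicate 3, the values were -1.55 for Atf3, -0.66 for Junb and 0.68 for Fos, and 5 of the 10 were called, with Jun at -0.19 (adjusted p = 0.0363) and Egr2 at -0.63 (adjusted p = 0.00648) added. Jun was also called at -0.19 without WT both replicate 1 and without labelled TLR4-/- rmTGF-β1 replicate 3, and Egr2 at -0.53 without labelled TLR4-/- rmTGF-β1 replicate 2. For Atf3, Junb and Fos the call held in 12 of 12 fits that left out a library.

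TGF-β1, the growth factor that drives fibroblasts towards matrix production, changed fewer of these messages in WT cells. Against PBS, 3 of the 10 genes were called with rmTGF-β1, against 12.4% of all genes: Junb higher, and Fos and Fosl2 lower. Junb was 6265, 6445 and 5679 against 4601, 5550.0 and 5660.0, a log2 fold change of 0.21 (with SE 0.08 and adjusted p = 0.0874). Fos was 429, 435 and 461 against 533, 588 and 547, at -0.34 (SE 0.11, adjusted p = 0.0659). Fosl2 was 10399, 9616 and 9724 against 10796, 11803 and 11154, at -0.19 (SE 0.05, adjusted p = 0.0127). In all 3 genes the treated and control libraries did not overlap, though for Junb the lowest treated value was close to the highest control. Egr1 (-0.19, 95% interval -0.57 to 0.2) and Egr2 (0.35, 95% interval 0.04 to 0.66, adjusted p = 0.17) were not called.

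These WT calls depended on single libraries, and those of Fos and Junb were near the threshold. That of Fos was lost in 5 of 6 fits without a library, all but the one without WT rmTGF-β1 replicate 3, with log2 fold changes of -0.35 to -0.28 and adjusted p up to 0.216. That of Junb was lost without WT PBS replicate 1 (0.14), WT rmTGF-β1 replicate 1 (0.19) or WT rmTGF-β1 replicate 2 (0.17), with adjusted p of 0.204 to 0.307, and that of Fosl2 without WT PBS replicate 2 (-0.14, adjusted p = 0.103).

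In cells labelled TLR4-/-, 6 of the 10 genes were called with rmTGF-β1, against 23.9% of all genes, with 3 higher against 12.1% and 3 lower against 11.7%. Fosb, a FOS protein that is also made in a truncated form, was 213, 162 and 204 with PBS and 321, 308 and 529.9 with rmTGF-β1. The change on the log2 scale was 1.01 (SE 0.17, adjusted p = 0.00021), and 0.71 (adjusted p = 0.00154) without replicate 3, whose value of 529.9 was far above the other 2. Egr2 was 617, 699 and 688 with PBS and 1122, 959.6 and 1473 with rmTGF-β1, at 0.84 (SE 0.15, adjusted p = 0.000388), and at 0.65 (adjusted p = 0.00505) without that same replicate. For both genes every treated library exceeded every control.

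The other calls with rmTGF-β1 in cells labelled TLR4-/- were smaller. Junb was 6797, 6270.1 and 7306 against 5813, 5931 and 5699, at 0.23 (SE 0.08, adjusted p = 0.0383), a call lost without labelled TLR4-/- PBS replicate 3 (0.22, adjusted p = 0.107) or rmTGF-β1 replicate 3 (0.18, adjusted p = 0.188). Fos was 459, 573 and 399.7 against 626, 726 and 717, at -0.53 (SE 0.11, adjusted p = 0.0016). Fosl2 was 7442, 8031 and 7859 against 9784, 9993 and 9060.1, at -0.3 (SE 0.05, adjusted p = 8.23e-05). Jund was 568, 552 and 511 against 667, 674 and 679, at -0.3 (SE 0.08, adjusted p = 0.0117). Fos, Fosl2 and Junb thus had the same sign with rmTGF-β1 in both genotypes, from separate sets of libraries.

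Although more genes were called in cells labelled TLR4-/-, the test of the genotype difference in the rmTGF-β1 response called none of the 10, against 0.0861% of all genes. At an unadjusted p under 0.05 there were 3 of the 10, Fosb, Jund and Egr2. Their differences were 0.88 for Fosb (SE 0.24, adjusted p = 0.172), -0.39 for Jund (SE 0.12, adjusted p = 0.211) and 0.49 for Egr2 (SE 0.21, adjusted p = 0.421). DESeq2 called 1 of the 10 and 163 of all genes, and without labelled TLR4-/- rmTGF-β1 replicate 2 the difference of Fosb was called at 1.02 (adjusted p = 0.0597).

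**Figure D3:**
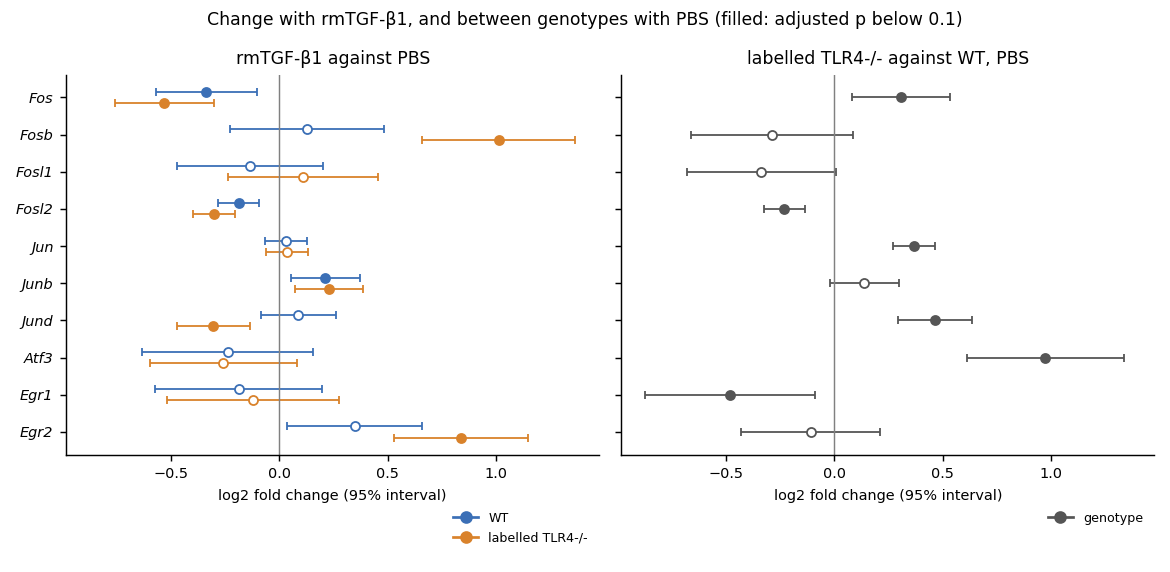
Log2 fold changes of the 10 genes (points) with 95% intervals (bars) for rmTGF-β1 against PBS in WT (blue) and labelled TLR4-/- cells (orange), and for labelled TLR4-/- against WT cells with PBS (grey), filled where the adjusted p was below 0.1. Fosb at 1.01 and Egr2 at 0.84 lead the orange points with rmTGF-β1, and Atf3 at 0.97 leads the comparison of genotypes.

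With PBS alone, cells labelled TLR4-/- differed from WT cells in 6 of the 10 genes, against 47.1% of all genes. Atf3 was 410.0, 461 and 495 in these cells against 227, 227 and 240 in WT, a log2 difference of 0.97 (SE 0.17, adjusted p = 9.45e-05). Jund was 667, 674 and 679 against 444, 506 and 510.0, at 0.47 (SE 0.08, adjusted p = 8.09e-05), and Jun was 2932, 2828 and 2897 against 2216, 2091 and 2398, at 0.37 (SE 0.05, adjusted p = 1.27e-06). Fos was 626, 726 and 717 against 533, 588 and 547, at 0.31 (SE 0.11, adjusted p = 0.0278). In none of these did the genotypes overlap. Fosl2 was lower, at 9784, 9993 and 9060.1 against 10796, 11803 and 11154, a difference of -0.23 (SE 0.05, adjusted p = 0.000321). Egr1 was lower too, at 1917, 1879 and 2038 against 2350.2, 2959 and 2813, a difference of -0.48 (SE 0.19, adjusted p = 0.0457).

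The call of Egr1 between genotypes was lost without WT PBS replicate 2 (-0.4, adjusted p = 0.161), WT PBS replicate 3 (-0.46, adjusted p = 0.101), or labelled TLR4-/- PBS replicate 1 or 2 (both -0.46, adjusted p = 0.106 and 0.104), and that of Fos without labelled TLR4-/- PBS replicate 2 (0.26, adjusted p = 0.103). Junb, at 0.14 (adjusted p = 0.155), was called at 0.19 without WT PBS replicate 2 or 3. The macrophage markers moved with this comparison: 13 of 13 were higher in libraries labelled TLR4-/-, against 23.2% of all genes, with a median log2 difference of 2.19, and none was at 0 in either genotype. The epithelial markers summed to 325 to 345 against 70.8 to 115, and the endothelial markers to 285 to 367 against 576 to 849.6. The part of these cells in the levels of Atf3, Jund, Jun, Fos, Fosl2 and Egr1 was not tested.

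Since FOS and JUN proteins compete for partners, the makeup of each family was described per kilobase of exon. In WT cells with PBS, Fosl2 made up 72.9% ± 0.378 (SD, n = 3) of FOS family reads per kilobase, Fos 14.8% ± 0.118, Fosl1 9.91% ± 0.408 and Fosb 2.37% ± 0.163. With rmCIRP, the share of Fos was 8.59% ± 0.953 and that of Fosl1 13.9% ± 1.07, so Fosl1 stood above Fos in all 3 libraries (12.7% at the lowest against 9.52% at the highest). With both proteins the shares were 9.24% ± 0.483 for Fos and 12.7% ± 0.7 for Fosl1 in WT cells. In cells labelled TLR4-/- the share of Fos was 20.3% ± 1.73 with PBS and 20.8% ± 0.818 with rmCIRP, and that of Fosl1 was 8.7% ± 0.575 and 8.49% ± 0.67. These shares carry the uncertainty of Fosl1 from its overlap with Ccdc85b.

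In the JUN family, Junb made up 69.7% ± 2.02 of reads per kilobase in WT cells with PBS, Jun 21.4% ± 2.01 and Jund 8.89% ± 0.174. The share of Junb was 76.1% ± 1.05 with rmCIRP and 79.4% ± 0.792 with both, and that of Jun was 17% ± 0.654 and 14.7% ± 0.263, so the share of Jun was lower although its own level was not. In cells labelled TLR4-/-, Junb made up 65.9% with PBS and 65.9% with rmCIRP, with SDs of 0.678 and 0.557. The shares are descriptions of message and say nothing of protein.

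**Figure D4:**
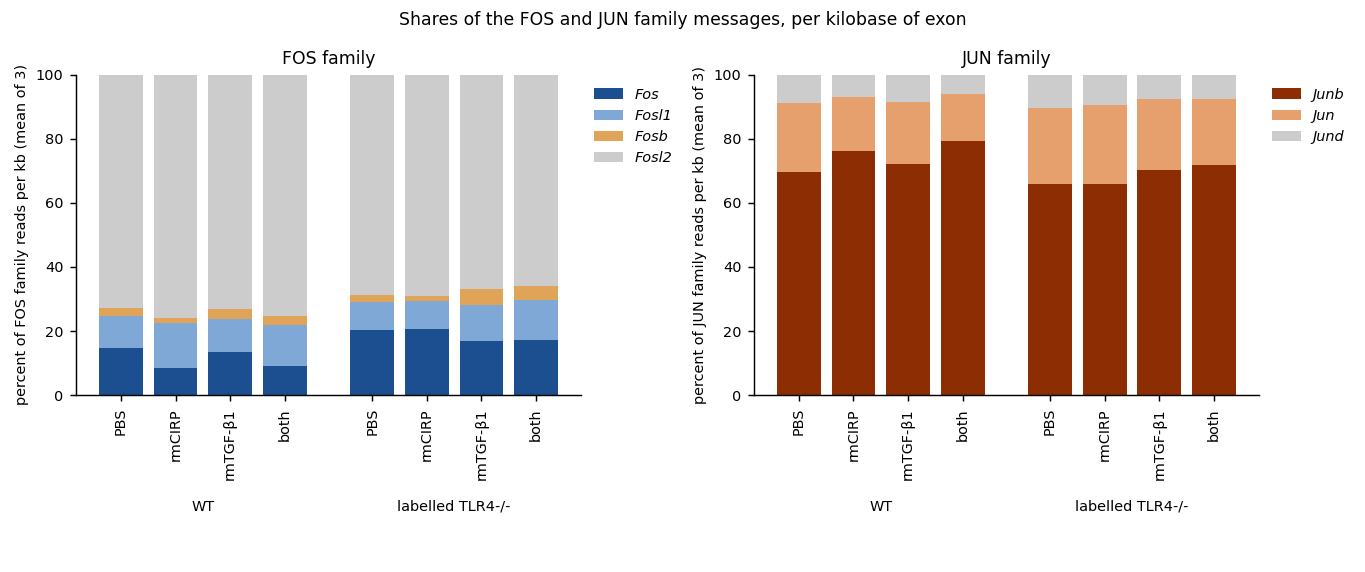
Stacked bars give each gene's percent of the FOS family (left) or JUN family (right) reads per kilobase of exon, as the mean of 3 libraries in each of 8 conditions. In WT cells the Fos segment narrows from 14.8% to 8.59% with rmCIRP and the Junb segment widens from 69.7% to 76.1%, while in labelled TLR4-/- cells both stay near their PBS values with rmCIRP.

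Around the 10 genes, related factors and the kinases, phosphatases and targets of the pathway were described from lists written from textbook knowledge. These lists were written with earlier results of these data known. Other AP-1 and related leucine zipper genes in WT cells with rmCIRP had 6 of 11 tested higher, against 19.8% of all genes, and 3 lower, against 24.1%. Batf2 and Batf, which pair with JUN proteins and are known for roles in immune cells, rose most. Batf2 had 3 to 6 reads per library with PBS and 84 to 101 with rmCIRP, a log2 fold change of 4.31 (with SE 0.33 and adjusted p = 6.37e-10). Batf had 15 to 20 reads and 50 to 77, at 1.84 (SE 0.22, adjusted p = 9.85e-07), and Mafg was 0.26 higher. Among the lower genes, Maf was at -0.36 (SE 0.06, adjusted p = 4.72e-05) and Jdp2, a repressor of AP-1, at -0.19 (SE 0.06, adjusted p = 0.0137). With rmCIRP in cells labelled TLR4-/-, 0 of the 11 were called, against 0% of all genes tested.

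The remaining EGR genes and their corepressors had 0 of 4 higher and 2 lower with rmCIRP in WT cells. Of all genes, 19.8% were higher and 24.1% lower. Egr3 was 234 ± 42 (SD, n = 3) with PBS and 138 ± 23 with rmCIRP, a log2 fold change of -0.76 (with SE 0.25 and adjusted p = 0.0213). Nab2, a corepressor that EGR proteins both induce and are curbed by, was 1455 ± 82 and 1093 ± 78, at -0.42 (SE 0.08, adjusted p = 0.000468). With both proteins against rmTGF-β1 in WT cells, 3 of the 4 were lower, against 21.7% of all genes, with Egr3 at -0.82, Nab2 at -0.61 and Egr4 at -1.14, while Egr2 itself was higher. With rmTGF-β1 in cells labelled TLR4-/-, 4 of the 4 were lower, against 11.7% of all genes. These were Nab2 at -0.66 (adjusted p = 1.2e-05), Nab1 at -0.3 (adjusted p = 0.000381), Egr3 at -0.67 (adjusted p = 0.0964) and Egr4 at -0.62 (adjusted p = 0.0862). In WT cells with rmTGF-β1, 2 of the 4 were lower, against 6.65% of all genes. These were Nab2 at -0.36 (adjusted p = 0.00826) and Nab1 at -0.17 (adjusted p = 0.0433). The genotype difference in the rmTGF-β1 response called 0 of the 4, against 0.0861% of all genes, and did not call Egr2 either.

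Of 17 other immediate early genes in WT cells with rmCIRP, 5 were higher, against 19.8% of all genes, and 5 were lower, against 24.1%. Ier3 rose by 1.53 (SE 0.2, adjusted p = 2.79e-06), from 6194 ± 415 to 17914 ± 1325, Nr4a2, an orphan nuclear receptor, by 0.61, and Myc by 0.54. Klf4 (-0.44), Ccn1 (-0.32) and Ccn2 (-0.29) fell, as Fos did. Of 18 genes for MAP kinases, their activators and the SRF module, 8 were higher and 3 lower, against the same shares. Map2k6, an activator of p38, was 1.06 higher (SE 0.16), Map3k8, the kinase TPL2 that links inflammatory receptors to ERK, was 1.03 higher (SE 0.12) and Map2k1 was 0.37 higher. Srf was at -0.4 (SE 0.09, adjusted p = 0.000745), its partner Elk1 at -0.25 and Mapk3 at -0.24.

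Among 9 MAP kinase phosphatases, which switch the kinases off, 4 were higher and 1 lower with rmCIRP in WT cells. Of all genes, 19.8% were higher and 24.1% lower in this comparison. Dusp2 (0.65, on 12 to 36 reads per library), Dusp5 (0.57) and Dusp16 (0.48) rose, and Dusp1, itself an immediate early gene, fell by 0.57 (SE 0.08, adjusted p = 9.42e-06), from 4150 ± 235 to 2798 ± 118. Of 19 genes given in textbooks as targets of AP-1 or EGR proteins, 12 were higher and 2 lower, against those shares. The median log2 fold change was 0.628, against -0.0215 over all genes. This list was written with earlier results of these data known, so it is no independent comparison. The collagenase Mmp13 rose by 3.12 (SE 0.24, adjusted p = 4.99e-10), the stromelysin Mmp10 by 2.95 (SE 0.29, adjusted p = 2.94e-08) and the chemokine Ccl2 by 2.63 (SE 0.18, adjusted p = 1.04e-10). Ccnd1, which encodes cyclin D1, fell by 0.74. Many of these targets answer to other factors too, and nothing here ties a target's change to one of the 10 genes.

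In cells labelled TLR4-/- with rmCIRP, 0 genes of any of these 6 lists were called by edgeR, against 0% of all genes tested. The test of the difference between genotypes called 2 higher and 4 lower among the 11 leucine zipper genes, and 1 higher and 12 lower among the 19 targets. It called 1 higher and 3 lower among the 9 phosphatases, and 2 higher and 7 lower among the 18 kinase and SRF genes. Among the 17 immediate early genes 4 were higher and 5 lower, and among the 4 EGR and NAB genes 1 and 0. Of all genes, 17.1% were higher and 14.3% lower. Mmp13 differed by -2.94 (SE 0.32, adjusted p = 3.42e-07), Ier3 by -1.53 (SE 0.28, adjusted p = 0.000335) and Dusp1 by 0.52 (SE 0.12, adjusted p = 0.00196).

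**Figure D5:**
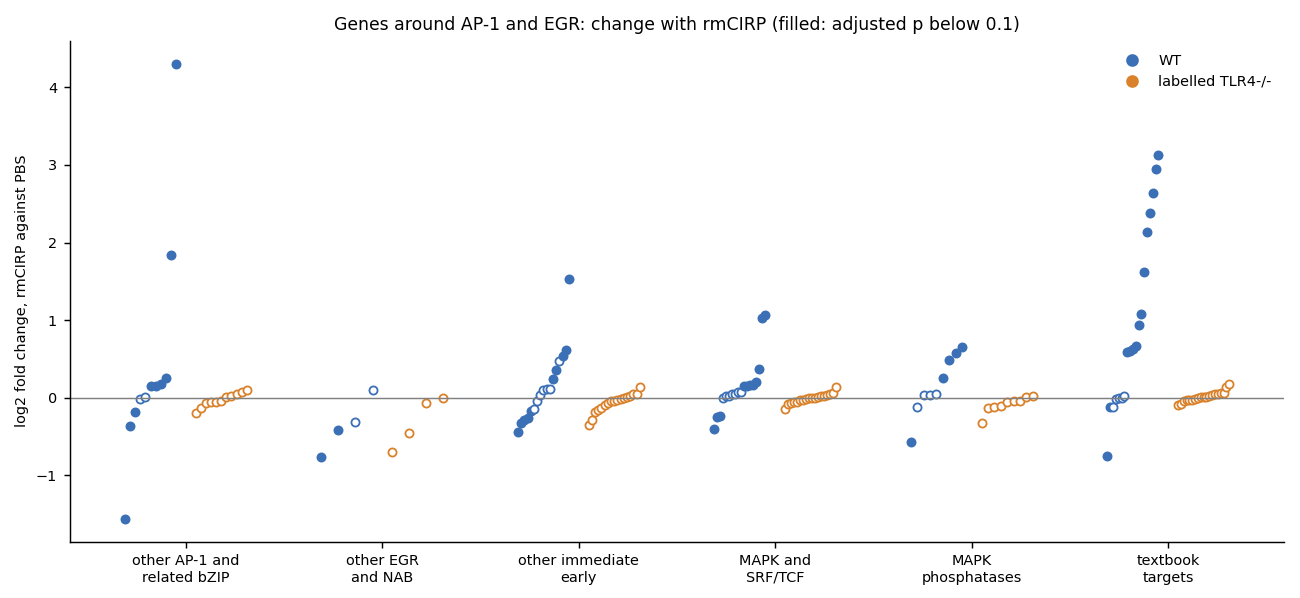
Each point is a gene of 6 lists around AP-1 and EGR, at its log2 fold change for rmCIRP against PBS in WT (blue) or labelled TLR4-/- cells (orange), filled where the adjusted p was below 0.1, and spread sideways only for legibility. Blue points reach up to 4.31 (Batf2) and lie on both sides of 0 in each list, and no orange point is filled.

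Genes with the most similar course over the 8 conditions were sought among the 12301 genes averaging 50 or more size-normalised reads, by Pearson's r of the condition means of log2 counts. The 8 means share libraries with the levels above, and no p is given. The course of Atf3 was closest to that of Ccl9, a chemokine (r = 0.993), Glrx, which encodes glutaredoxin (0.99), and Epsti1, an interferon-induced gene (0.988). Junb was closest to Csnk2b, a casein kinase subunit (0.989), Fos to Osbpl1a (0.994), Egr1 to Errfi1, a feedback inhibitor of the EGF receptor (0.994), and Egr2 to Kctd11 (0.991). Fosl2 was closest to Tbc1d2b (0.995), Fosl1 to Rpp38 (0.989) with the leucine zipper gene Atf1 next (0.976), Jun to Parp4 (0.985), Fosb to Fmnl3 (0.966) and Jund to Zfp787 (0.923). Replicate 3 of labelled TLR4-/- cells with both proteins bore on several of these. Without it, the nearest gene was Map3k8 for Atf3 (0.99, with Ccl9 at 0.98), Fam43a for Egr1 (0.993, with Errfi1 at 0.982) and Tti2 for Fosl1 (0.988, with Rpp38 at 0.964). The nearest gene also became Pcdh9 for Fosl2 (0.996), 1110008P14Rik for Jun (0.976) and Atp5md for Junb (0.986), and it remained that named above for Fos, Fosb, Jund and Egr2.

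Among the 10 genes themselves, the highest r was 0.913 between Fosl1 and Egr1 (0.908 without that replicate), followed by 0.823 between Fosl2 and Egr1 (0.914 without it) and 0.764 between Fosb and Egr2 (0.721). The lowest was -0.889 between Fos and Junb (-0.908 without it), and Fos and Fosl1 were at -0.795 (-0.813). The course of Atf3 had r of 0.568 with Junb (0.559), 0.559 with Jun (0.524) and -0.231 with Fos (-0.253).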

How the data were processed

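Fibroblast RNA was prepared with a stranded total RNA kit and sequenced on an Illumina NextSeq. The authors checked reads with FastQC, aligned them with STAR2 to mouse GENCODE and deposited raw ht-seq counts per gene. The submitters' processing notes name build NCBIM37. The annotation release and the strand option are not given in the sources used here. The 5 tally rows, 14.53% to 16.13% of reads, were left out. Counts were tested with edgeR 4.0.16 in R 4.3.3 (TMM scaling, filterByExpr, quasi-likelihood test, 1 mean per condition, 24 libraries), and genes were called at an adjusted p below 0.1 over 16258 genes, after a test on simulated data. Intervals are 95% intervals of the model. Alternatives included DESeq2 1.42.0, other filters and scaling, a replicate block and leaving out each library. The text names every member, up to 3 called genes per list and direction by size of change, and the 3 genes of most similar course. Some genes that this rule names are not reported here. Egr4 and Nab1, outside it, were named after their values were seen. Members and lists were chosen with earlier results of these data known.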

Additional observations from a re-analysis of the deposited data

Results flagged for a closer look

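The response to rmCIRP differed between the genotypes in 6 of the 10 genes, against 31.4% of all genes, by the test of the difference itself with edgeR. With the WT response subtracted from that of labelled TLR4-/- cells, the difference was -1.42 for Atf3, -0.79 for Junb, -0.58 for Fosl1, -0.46 for Jund, -0.26 for Jun and 0.75 for Fos on the log2 scale. The call of Fosl1 was lost in 4 of 12 fits without a library, those without WT PBS replicate 3, WT rmCIRP replicate 3, labelled TLR4-/- PBS replicate 1 or labelled TLR4-/- rmCIRP replicate 3, with adjusted p of 0.115 to 0.158. Beside rmTGF-β1 it was -1.18 for Atf3, -0.58 for Junb and 0.70 for Fos, with 3 of the 10 genes called against 20.9% of all. Fosl1 (0.011), Jund (0.015) and Jun (-0.16) were not called there. The 2 sets of differences come from separate libraries. The macrophage markers, the sex of the pooled mice and the genotype label move together across these libraries and cannot be told apart, and Tlr4 reads were not fewer under the TLR4-/- label.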

How the results depend on the processing

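Each result was recomputed with another scaling (RLE), without the filter on low counts, with a filter at a mean count of 10, with only the libraries compared, with DESeq2, with a replicate block and without each library. Of the values of the 10 genes under these alternatives, 1406 kept their direction and their side of the threshold, 54 passed it, 27 lost it and 73 changed sign. The levels relative to WT cells with PBS moved by less than 1 SD in all 70 ratios computed when scaled by TMM. The cause of the changes was not tested. In WT cells with PBS, Fosl2 had the most reads of the 10 genes, and Atf3, Fosb and Fosl1 had the fewest. The part of depth in the changes was not tested either.

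Without the filter on low counts, the calls among the 10 genes were 5 for rmTGF-β1 in WT cells, 1 for rmCIRP in cells labelled TLR4-/-, 3 for both against rmTGF-β1 in those cells, 5 for the genotype difference of that response and 3 for the genotype difference of the rmTGF-β1 response. The calls over all genes were then 2173 for rmTGF-β1 in WT cells, 3163 for the genotype difference in both against rmTGF-β1, 149 for rmCIRP and 1580 for both against rmTGF-β1 in cells labelled TLR4-/-, 563 for the genotype difference of the rmTGF-β1 response and 198 for the interaction. DESeq2 called 33, 902, 163 and 37 of all genes in the last 4 of these comparisons, and 1 of the 10 in the genotype difference of the rmTGF-β1 response. With only the libraries compared, 5 of the 10 and 2983 of all genes were called for rmTGF-β1 in WT cells, with 29 of all genes for rmCIRP and 0 for both against rmTGF-β1 in cells labelled TLR4-/-, and 125 for the interaction. The filter at a mean of 10 gave 23 genes for the genotype difference of the rmTGF-β1 response.

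Replicate numbers did not mark pairs on average. Over 84 pairs of same-numbered libraries the deviations from the condition mean had a mean correlation of 0.0219. The range was -0.29 to 0.559, and 21 pairs were above 0.1. A mean near 0 cannot exclude pairing among some conditions. With the replicate number as a block, 1 gene was called for rmCIRP and 810 for both against rmTGF-β1 in cells labelled TLR4-/-, and 22 for the genotype difference of the rmTGF-β1 response.

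Values near 0 changed sign. Fosl2 with rmCIRP in cells labelled TLR4-/- was -0.003598 with RLE, -0.004898 without the filter, -0.001832 with the mean filter and -0.004803 with DESeq2. The genotype difference of the rmTGF-β1 response was, in the same order, -0.00544, -0.03291, -0.008787 and -0.006391 for Jun, and -0.02064 without the filter for Junb. Jund with both against rmTGF-β1 in cells labelled TLR4-/- was 0.0004307 with the mean filter and 1.84e-06 with DESeq2, and the genotype difference of Fosl1 in that response was -0.0007973 with the mean filter.

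Without single libraries, the calls over all genes ran from 1029 to 1690 for rmTGF-β1 in WT cells, 0 to 9 for rmCIRP, 2517 to 3783 for rmTGF-β1 and 0 to 2674 for both against rmTGF-β1 in cells labelled TLR4-/-, 0 to 119 for the genotype difference of the rmTGF-β1 response and 2 to 7 for the interaction. Among the 10 genes they ran from 1 to 3 for rmTGF-β1 in WT cells, 0 to 3 for both against rmTGF-β1 in cells labelled TLR4-/-, 3 to 5 for the genotype difference of that response and 0 to 1 for that of the rmTGF-β1 response. The log2 values that changed sign among these fits had these lowest and highest values. For rmCIRP in cells labelled TLR4-/- they were Atf3 -0.04168 to 0.09, Fos -0.03505 to 0.08595, Fosl1 -0.09925 to 0.05539 and Fosl2 -0.04626 to 0.02883. For both against rmTGF-β1 in cells labelled TLR4-/- they were Atf3 -0.1294 to 0.4158, Egr1 -0.03022 to 0.6591, Egr2 -0.1743 to 0.2497, Fosb -0.2181 to 0.2256, Fosl1 -0.02956 to 0.4901, Junb -0.03669 to 0.1102 and Jund -0.05412 to 0.0344. For the genotype difference of that response they were Egr1 -0.1469 to 0.5426, Fosb -0.04485 to 0.3986, Fosl1 -0.328 to 0.1925 and Jund -0.07426 to 0.07639. For the genotype difference of the rmTGF-β1 response they were Atf3 -0.1039 to 0.0307, Egr1 -0.02085 to 0.1493, Jun -0.04616 to 0.04066 and Junb -0.0343 to 0.08869. For the interaction they were Atf3 -0.1234 to 0.08825 and Junb -0.08033 to 0.05812. For rmTGF-β1 in WT cells they were Jun -0.00228 to 0.08336. For both against rmTGF-β1 in WT cells they were Jund -0.08125 to 0.074. For rmTGF-β1 in cells labelled TLR4-/- they were Fosl1 -0.03009 to 0.2261. In the likeness of course, an alternative chosen after seeing the data, leaving out replicate 3 of labelled TLR4-/- cells with both proteins turned r to -0.00324 between Jun and Egr2 and to -0.0076 between Egr1 and Egr2. A condition left with 2 libraries took its spread from the fit over all conditions.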
